A study of Homo sapiens with 8 samples.

Results

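The EGFR family of receptor tyrosine kinases and its ligands were followed by RIP-chip in A431 cells, a human line of cutaneous squamous cell carcinoma (cSCC) that is known for its amplified EGFR gene. The 10 members were the receptors EGFR, ERBB2 and ERBB3, the ligands AREG, EREG, HBEGF, TGFA, BTC and EPGN, and the inhibitor ERRFI1. All probes whose RefSeq accession belonged to one of these genes were taken, which gave 16 of the 58201 probes of the array, where 22439 gene symbols were matched. Of the 16 probes, 12 of 9 genes were well above background on all 8 arrays and were tested, among 16808 such probes in all. The cells had received the negative control miRNA (miR-NC) or miR-634 at 10 nM and were lysed 24 h later. RNA bound to AGO2, the protein that carries miRNAs to their target transcripts, was isolated with an AGO2 antibody (RIP), and total RNA of the same cells was the input. Each kind of RNA from each kind of cell made 1 of 4 groups, with 2 one-color arrays per group, named here by miRNA and RNA (miR-634 RIP, for example). The sample labels name a normal rabbit IgG antibody for the input arrays, whereas the methods call them total RNA, and they are treated here as input. Nothing stated that the duplicates came from separate transfections, so p-values measure only the spread between these arrays, which may be technical. The overexpression came from a transfected miRNA in a single cell line.

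EGFR family receptors sit in the plasma membrane of epithelial cells. A ligand that binds EGFR makes it pair with another EGFR molecule or with ERBB2 or ERBB3, and the kinase then signals through RAS-MAPK and PI3K-AKT to growth and survival. The ligands are made as membrane-bound precursors that are cut free at the cell surface, and in squamous epithelium the cells commonly make the ligands for their own receptors. ERRFI1, which these signals induce, binds the kinase and dampens it.

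A miRNA recognizes transcripts chiefly through its seed, the bases near its 5′ end. The mature sequence of miR-634 is shown because it is the agent whose loading into AGO2 separates the 2 kinds of cells. It is given 5′ to 3′ from RefSeq (GRCh38.p14, chr17:66787132-66787153, plus strand, within the span of PRKCA), with the seed, bases 2 to 8, in capitals.
hsa-miR-634: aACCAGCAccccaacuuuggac
Of the 2370 mature human miRNAs in the same table, 1 had this seed, miR-634 itself. A matching site in a transcript would read TGCTGGT, but the transcripts of the members were not analysed here for such sites.

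The genes of 4 ligands, EPGN, EREG, AREG and BTC, follow one another on chromosome 4 with no other protein-coding gene between them. Short stretches of their promoters are shown because AREG and EREG, 2 of these neighbors, moved alike on the arrays. Whether this relates to their position or promoters was not tested. The stretches come from RefSeq (GRCh38.p14, plus strand), with the motif in capitals.
AREG, chr4:74445060-74445089: cggccgggcctTGACGTCAtgggctgcggc
AREG, chr4:74445095-74445124: cccggctgagccTATAAAgcggcaggtgcg
EREG, chr4:74365101-74365130: ggggctccctagTATAAAgttcgcagcacc
EPGN, chr4:74308429-74308458: cgcttcatgaaaTATAAAtgcaacaaagac
The letters TATAAA began 29 bases before the annotated start of AREG, 32 bases before that of EREG and 29 bases before that of EPGN. On either strand, these letters were held by 11.5% of the 35116 promoters in the table. The palindrome TGACGTCA, the cyclic AMP response element, began 65 bases before the start of AREG and was held by 1.85% of all promoters. Of the 9 members with a promoter in the table, 4 held TATAAA (AREG, EREG, EPGN and a second EGFR start) and AREG alone held TGACGTCA. A member was counted if any of its starts held the letters, whereas the shares are of single promoters. Also searched on both strands were the AP-1 motif TGACTCA (4.95% of all promoters, and the second EGFR start among the members) and the GC box GGGCGG (45.0% of all promoters, and those of EGFR, AREG, BTC, HBEGF, TGFA and ERRFI1). A match of letters is a description of the sequence and not evidence that a factor binds there.

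The arrays were checked before the members were read. All 10 markers of squamous epithelium on a list that included KRT5, KRT14 and DSG3 were well above background on all 4 input arrays. On the same arrays this held for 1 of 6 mesenchymal markers (LUM), 2 of 4 melanocyte markers (PMEL and DCT) and 0 of 4 blood cell markers. For APIP, a known target of miR-634, RIP/input was 8.97-fold higher in miR-634 cells than in miR-NC cells (limma, adjusted p = 2.35e-06). The RIP arrays of the 2 kinds of cells differed in brightness before scaling. The 75th percentile of the log2 intensity was 11.38 to 11.53 on the input arrays, 9.39 and 9.48 on those of the miR-NC RIP, and 10.38 and 10.43 on those of the miR-634 RIP. Each array was therefore shifted by this percentile, taken over the tested probes, and levels below are log2 values relative to it. Scaling to the spike-in RNA instead moved the median of all tested probes from -0.06 to -2.64 for log2 RIP/input in miR-NC cells, from -0.15 to -1.63 in miR-634 cells, and from -0.26 to 0.84 for the change between them. Directions below are relative to this percentile of the same array. Those of tested member probes that turned under scaling to the spike-in RNA are named. For the pathway genes, only counts of calls under that scaling are given. Bounds for probes that were not tested were computed relative to the percentile only. The part of the brightness in any result was not tested.

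**Figure D1:**
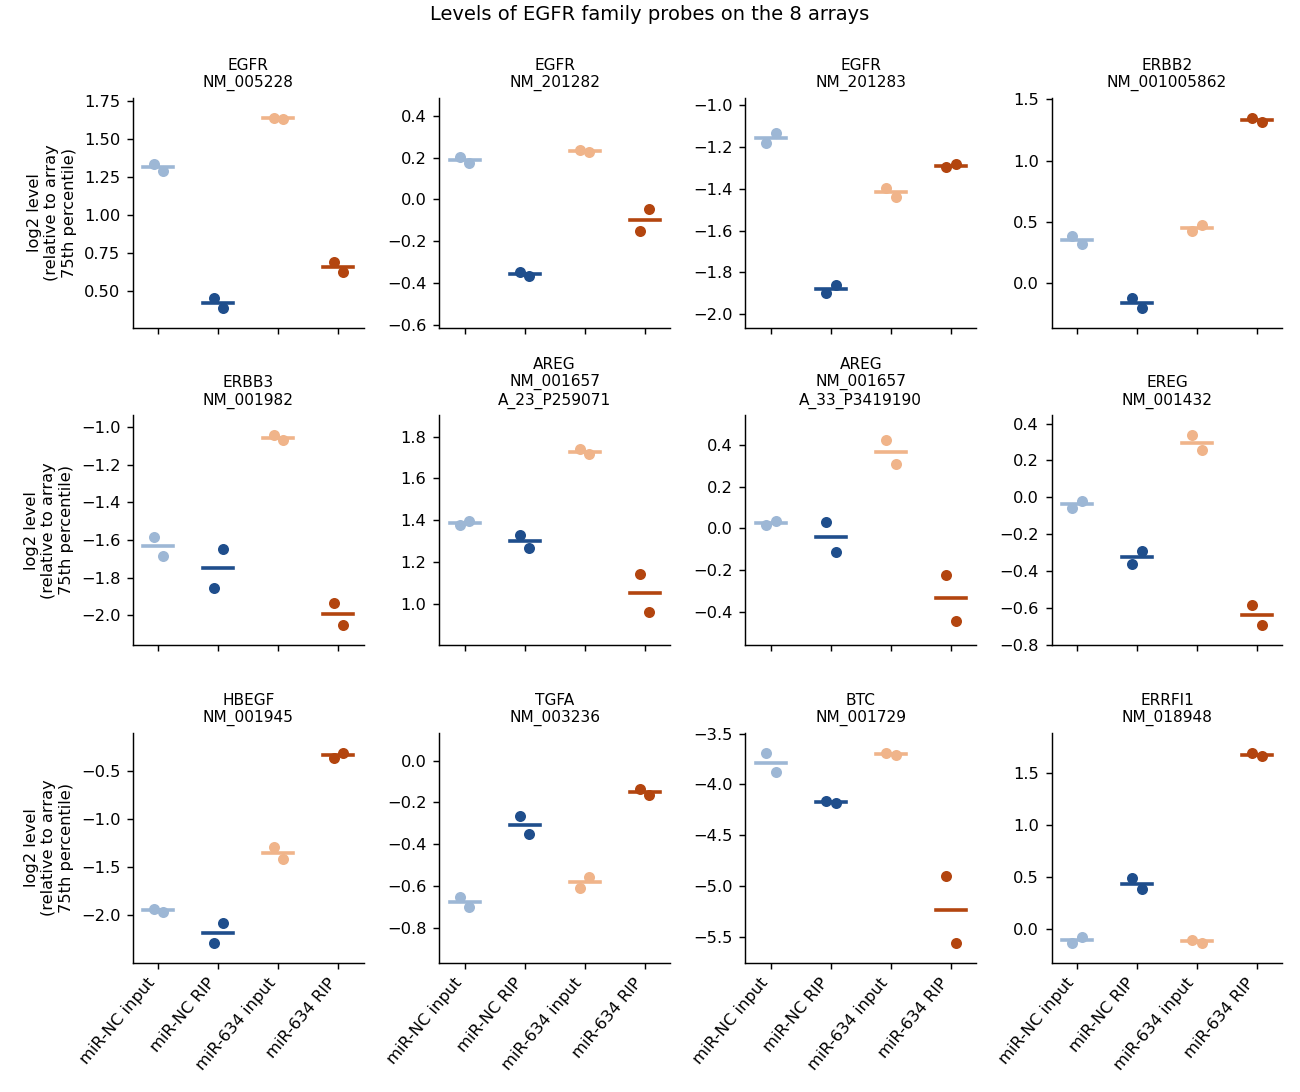
Log2 level of each of the 12 tested probes of the EGFR family (vertical axis, relative to the 75th percentile of the array; each panel has its own range) in the 4 groups on the horizontal axis. Points are single arrays and bars are means of 2 arrays. The ERBB2, HBEGF and ERRFI1 probes were highest on the miR-634 RIP arrays, whereas the ERBB3, AREG, EREG and BTC probes were lowest there. Under scaling to the spike-in RNA, ERBB2 and HBEGF in the miR-634 RIP were below the miR-634 input. ERBB3, AREG and EREG were then above the miR-NC RIP.

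RIP/input was first compared within each kind of cell, which gives the share of a transcript held by AGO2 relative to the other transcripts. In miR-NC cells, limma called 8 of the 12 member probes, 2 higher and 6 lower in the RIP, against 77.5% of all tested probes (36.3% higher and 41.1% lower). In miR-634 cells, all 12 were called, 5 higher and 7 lower, against 82.5% of all tested probes (35.8% higher and 46.7% lower). Under scaling to the spike-in RNA, the split became 0 higher and 12 lower in miR-NC cells and 0 higher and 11 lower in miR-634 cells, while 98.1% and 84.7% of all tested probes were lower.

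**Figure D2:**
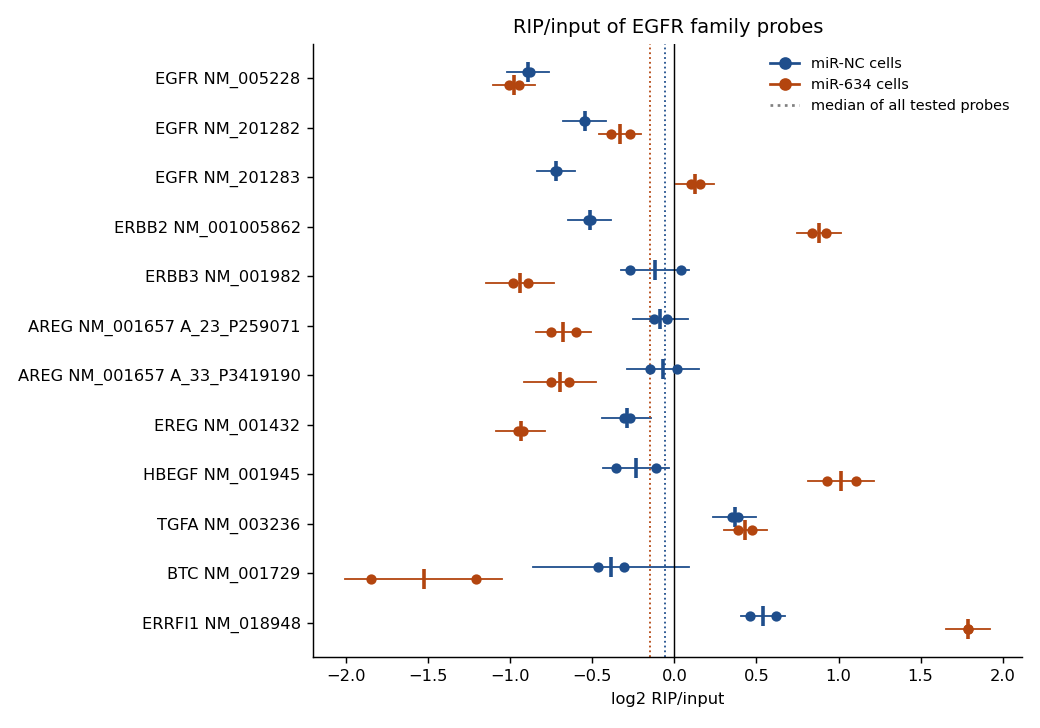
Log2 RIP/input (horizontal axis) of each tested probe (vertical axis) in miR-NC cells (blue) and miR-634 cells (orange). Points are the ratios of the arrays with the same number, ticks are means, lines are 95% confidence intervals from limma and dotted lines are the medians of all tested probes (-0.06 and -0.15). ERBB2 and HBEGF lay below 0 in miR-NC cells and above 0 in miR-634 cells (-0.60 and -0.47 in miR-634 cells under scaling to the spike-in RNA).

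The main question of the design was whether this ratio differed between the 2 kinds of cells. The change of enrichment is the log2 RIP/input of miR-634 cells less the same value of miR-NC cells. RIP/input of ERBB2, HBEGF, ERRFI1 and the probes annotated to shorter EGFR variants was higher in miR-634 cells. Among these, the call of the EGFR NM_201282 probe was lost under 13 of 22 alternatives. RIP/input of BTC, ERBB3, EREG and AREG was lower. However, under scaling to the spike-in RNA the last 3 genes turned to the higher side and the call of BTC was lost (-0.04). Of the 12 probes, 5 were higher, 5 were lower and 2 were not called, against a background of 68.4% of all tested probes called (24.9% higher and 43.5% lower). The median change was -0.01 over the member probes and -0.26 over all tested probes. Scaling to the spike-in RNA gave 7 higher and 0 lower among the members, beside 63.2% higher and 1.71% lower among all tested probes.

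EGFR, the receptor that names the family, was measured by 3 probes, annotated to the full-length transcript (NM_005228) and to the shorter variants NM_201282 and NM_201283, which encode receptors without the kinase domain. Which of these transcripts each probe can bind was not checked. In miR-NC cells, the NM_005228 probe stood at 1.34 and 1.29 in the input and at 0.46 and 0.39 in the RIP. In miR-634 cells, it stood at 1.64 and 1.63 in the input and at 0.69 and 0.63 in the RIP. Both RIP levels were below both input levels in either kind of cell. Its log2 RIP/input was -0.89 ± 0.05 (SE; adjusted p = 1.28e-05) in miR-NC cells and -0.98 ± 0.05 (adjusted p = 4.58e-06) in miR-634 cells. The change of enrichment was -0.09, with a 95% confidence interval of -0.26 to 0.09 (adjusted p = 0.335), and its sign turned under 5 of 24 alternatives. Under scaling to the spike-in RNA, the change was 1.01. The mean of the 3 EGFR probes changed by 0.33 and was called higher. In the input, the NM_005228 probe rose 1.25-fold in miR-634 cells (0.32 ± 0.05 on the log2 scale, adjusted p = 0.0105). That call was lost under 8 of 24 alternatives, among them leaving out any 1 input array. Under scaling to the spike-in RNA, the input change was 0.09. In the RIP, the probe rose 1.18-fold (0.24 ± 0.05, adjusted p = 0.00585).

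The 2 variant probes of EGFR behaved otherwise. The NM_201282 probe had input levels of 0.20 and 0.18 in miR-NC cells and of 0.24 and 0.23 in miR-634 cells, which differed by 0.04 with an adjusted p of 0.626. Its RIP level was -0.35 and -0.37 in miR-NC cells and -0.15 and -0.04 in miR-634 cells, and the change of enrichment was 0.22 ± 0.08 (adjusted p = 0.0408). This call was lost under 13 of 22 alternatives, among them leaving out any array other than miR-634 RIP number 1 (adjusted p = 0.0642 to 0.12). The NM_201283 probe fell from -1.18 and -1.13 in the miR-NC input to -1.40 and -1.44 in the miR-634 input (-0.26 ± 0.05, adjusted p = 0.0161). On the RIP arrays it rose from -1.90 and -1.86 to -1.29 and -1.28. Its log2 RIP/input thus went from -0.72 ± 0.05 to 0.13 ± 0.05, a change of 0.85 ± 0.07 (adjusted p = 7.86e-05), which was called under all 22 alternatives. The value of 0.13 itself (adjusted p = 0.0422) was -1.35 under scaling to the spike-in RNA, and was not called when any input array or miR-634 RIP array was left out (adjusted p = 0.0704 to 0.166).

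Because the probes share an array, their difference does not depend on how the array was scaled. On the input arrays, the NM_201283 probe minus the NM_005228 probe was -2.52 and -2.42 in miR-NC cells and -3.03 and -3.07 in miR-634 cells, a shift of -0.58. On the RIP arrays the same difference was -2.35 and -2.25 in miR-NC cells and -1.99 and -1.91 in miR-634 cells, a shift of 0.35. The NM_201282 probe shifted against the NM_005228 probe by -0.28 on the input arrays and by 0.02 on the RIP arrays. The 3 EGFR probes therefore changed unequally, and in opposite directions on the 2 kinds of arrays for NM_201283. Unequal change between probes is what these values show, without showing which probe stayed in place.

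**Figure D3:**
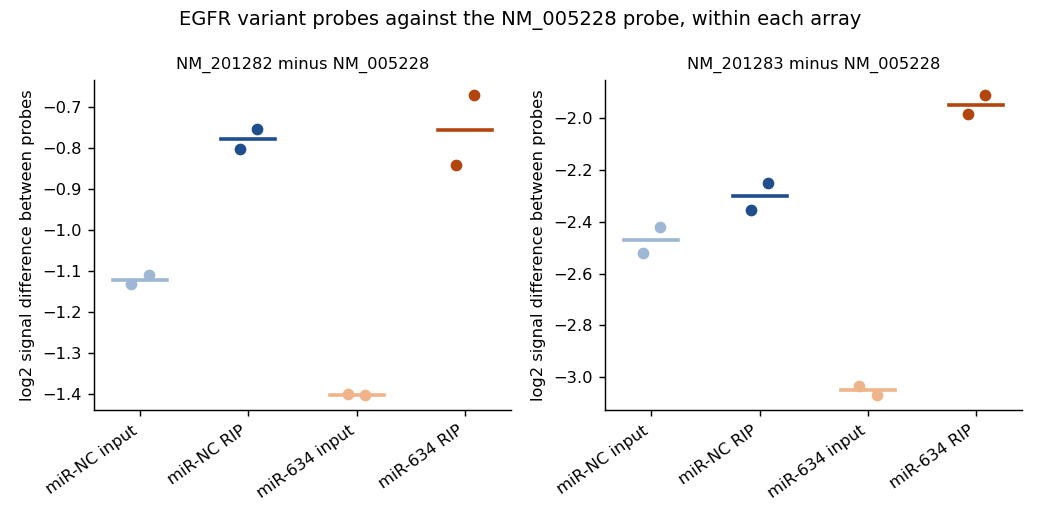
Difference in log2 signal between each EGFR variant probe and the NM_005228 probe on the same array (vertical axis; the panels differ in range) in the 4 groups. Points are single arrays and bars are means; the offset between probes carries no meaning, but its shift does, by -0.58 on the input and 0.35 on the RIP arrays for NM_201283 and by -0.28 and 0.02 for NM_201282.

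The 5 genes whose pattern over the 8 arrays was most like that of the NM_005228 probe, out of 10959 genes, were HEATR1, BAZ1B, ZSWIM9, VIRMA and DSP. Their root mean square difference from EGFR, after each gene was centered on its own mean, was 0.06 to 0.07 on the log2 scale. These patterns share 8 arrays and 4 groups, and they are given as a description.

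ERBB2, the co-receptor without a ligand of its own, had the largest change of enrichment among the members. Its input level was 0.38 and 0.32 in miR-NC cells and 0.43 and 0.48 in miR-634 cells, a difference of 0.10 ± 0.05 (adjusted p = 0.261). Its RIP level was -0.13 and -0.20 in miR-NC cells but 1.35 and 1.31 in miR-634 cells, a rise of 2.82-fold (adjusted p = 1.8e-06). The miR-634 RIP arrays were above the other 6 arrays, and the 2 miR-NC RIP arrays were below them. Log2 RIP/input accordingly went from -0.52 ± 0.05 (adjusted p = 0.000167) to 0.88 ± 0.05 (adjusted p = 8.86e-06, and -0.60 under scaling to the spike-in RNA). The change of 1.40 ± 0.08, or 2.63-fold (adjusted p = 1.69e-05), was higher than the change of 92.2% of all tested probes, and was called under all 24 alternatives (1.34 to 2.50). The ERBB2 probe was printed as 10 spots on each array, whose intensities had a coefficient of variation between 2.49% and 8.27%. On the same arrays, ERBB2 shifted against the NM_005228 probe of EGFR by -0.22 in the input and by 1.26 in the RIP.

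ERBB3, a receptor with little kinase activity that relies on its partners and feeds into PI3K, moved the other way. The tested probe (NM_001982) rose in the input from -1.58 and -1.68 to -1.04 and -1.07 (1.49-fold, adjusted p = 0.00789), a change above that of 98.9% of all tested probes. On the RIP arrays it was at -1.85 and -1.65 in miR-NC cells and -1.94 and -2.05 in miR-634 cells. The groups did not overlap, and the RIP change was -0.25 ± 0.09 (adjusted p = 0.0357), close to the median of all tested probes (-0.24). It turned to 0.62 under scaling to the spike-in RNA and was not called under a further 18 of 24 alternatives. The change of enrichment was -0.82 ± 0.12 (adjusted p = 0.00112, and 0.28 under scaling to the spike-in RNA), from -0.12 in miR-NC cells (adjusted p = 0.248) to -0.94 in miR-634 cells (adjusted p = 5.67e-05). Without miR-NC RIP number 2, RIP/input in miR-NC cells was called (-0.22, adjusted p = 0.0471). The RIP change was -0.14 (adjusted p = 0.155) without that array, -0.19 (adjusted p = 0.156) without miR-634 RIP number 2, and -0.25 without any 1 of the 4 input arrays (adjusted p = 0.0504 to 0.0603).

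The other 2 ERBB3 probes gave bounds or no value. The probe for NM_001005915, a short secreted form, was not well above background on either miR-NC RIP array. Its RIP level was at least 2.52-fold lower than its input level in miR-NC cells, and at least 1.27-fold higher on the miR-634 RIP arrays than on the miR-NC ones. Bounds here set the mean of the brighter group against the lowest signal that counted as well above background on the dimmer arrays. In miR-634 cells, where it was measured on both sides, its log2 RIP/input was -1.34, and its input level was 0.35 higher than in miR-NC cells. The third ERBB3 probe was well above background on 1 of 8 arrays, a miR-634 input array, and no fold is given for it.

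AREG and EREG, 2 ligands that squamous cells release in quantity, rose in the input. The input calls were lost under 8 (EREG) or 9 (each AREG probe) alternatives, among them leaving out any 1 input array. Under scaling to the spike-in RNA, the input changes were 0.10 to 0.11. In the RIP, the 2 ligands were called lower than in miR-NC cells relative to the 75th percentile of the array. However, the RIP changes (-0.25 to -0.31) lay close to the median of all tested probes (-0.24). These calls were lost once the median probe was set to 0 (-0.01 to -0.08, adjusted p = 0.291 to 0.882), with the authors' values, with the percentile over all probes and by the methods' t-test after adjustment, and the direction turned under scaling to the spike-in RNA. The brighter AREG probe (A_23_P259071) was at 1.38 and 1.39 in the miR-NC input and at 1.74 and 1.72 in the miR-634 input. The corresponding RIP levels were 1.33 and 1.27 in miR-NC cells and 1.14 and 0.96 in miR-634 cells. The miR-634 arrays were thus above the miR-NC arrays in the input and below them in the RIP. AREG rose by 0.34 ± 0.07 in the input (adjusted p = 0.0211) and changed by -0.25 ± 0.07 in the RIP (adjusted p = 0.0155, and by 0.62 under scaling to the spike-in RNA). The RIP call was lost without miR-NC RIP number 1 (-0.22, adjusted p = 0.0638) and without miR-634 RIP number 2 (-0.16, adjusted p = 0.0542). RIP/input changed by -0.59 ± 0.10 (adjusted p = 0.00193, and by 0.51 under scaling to the spike-in RNA), from -0.09 (adjusted p = 0.29) to -0.68 (adjusted p = 0.000104).

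The second AREG probe (A_33_P3419190) gave similar values on its own scale. Its level was 0.02 and 0.04 in the miR-NC input and 0.03 and -0.11 in the miR-NC RIP, and, for miR-634 cells, 0.42 and 0.31 in the input and -0.22 and -0.44 in the RIP. The change of enrichment was -0.63 ± 0.13 (adjusted p = 0.00498, and 0.47 under scaling to the spike-in RNA). The input change of 0.34 ± 0.09 had an adjusted p of 0.0498, and the RIP change was -0.29 ± 0.09 (adjusted p = 0.0247, and 0.57 under scaling to the spike-in RNA). That RIP call was lost without miR-NC RIP number 1 (adjusted p = 0.109) and without miR-634 RIP number 2 (adjusted p = 0.113). Within arrays, the difference between the 2 AREG probes shifted by -0.00369 in the input and by -0.04 in the RIP.

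EREG was at -0.06 and -0.02 in the miR-NC input and at 0.34 and 0.25 in the miR-634 input. On the RIP arrays it was at -0.36 and -0.29 in miR-NC cells and at -0.59 and -0.70 in miR-634 cells, so that neither comparison overlapped. It rose by 0.33 ± 0.06 in the input (adjusted p = 0.0167) and changed by -0.31 ± 0.06 in the RIP (adjusted p = 0.00352, and by 0.55 under scaling to the spike-in RNA). With the median probe set to 0, the RIP change was -0.08 (adjusted p = 0.291), and it was -0.14 with the authors' values (adjusted p = 0.218). RIP/input went from -0.29 ± 0.06 (adjusted p = 0.00487) to -0.94 ± 0.06 (adjusted p = 1.22e-05), a change of -0.65 ± 0.09 (adjusted p = 0.000804, and 0.45 under scaling to the spike-in RNA). Within arrays, EREG shifted against the brighter AREG probe by -0.01 in the input and by -0.07 in the RIP. These 2 genes thus moved alike on both kinds of arrays whatever the scaling. Like values on 1 kind of array were not limited to neighboring genes. The EGFR NM_005228 probe changed by 0.32 in the input (0.24 in the RIP), and ERBB3 by -0.25 in the RIP (0.58 in the input).

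HBEGF, a heparin-binding ligand that is shed from the cell surface, had the largest RIP change among the members. In the input, its level was -1.93 and -1.96 in miR-NC cells and -1.29 and -1.41 in miR-634 cells. In the RIP, it was -2.29 and -2.08 in miR-NC cells and -0.36 and -0.31 in miR-634 cells. It rose 1.51-fold in the input (0.60 ± 0.08, adjusted p = 0.00669), more than 99.0% of all tested probes, and 3.60-fold in the RIP (1.85 ± 0.08, adjusted p = 4.13e-06). Log2 RIP/input in miR-634 cells was 1.02 ± 0.08 (adjusted p = 3.32e-05, and -0.47 under scaling to the spike-in RNA). The change of enrichment was 1.25 ± 0.12, or 2.38-fold (adjusted p = 0.000155), and was called under all 24 alternatives. In miR-NC cells, RIP/input was -0.24 ± 0.08 (adjusted p = 0.0371), a call lost under 16 of 24 alternatives, with -0.13 (adjusted p = 0.16) without miR-NC RIP number 1. It was also lost without either miR-NC input array (-0.22 and -0.25, adjusted p = 0.132 and 0.095) or either miR-634 RIP array (-0.24, adjusted p = 0.0524). HBEGF was thus higher on the miR-634 arrays of both kinds, and it shifted against the brighter AREG probe by 0.25 in the input and by 2.10 in the RIP.

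TGFA, a ligand of normal and malignant keratinocytes, showed small differences between the 2 kinds of cells. The tested probe (A_33_P3408203) was at -0.65 and -0.70 in the miR-NC input and at -0.61 and -0.55 in the miR-634 input (adjusted p = 0.277). Its RIP level was -0.27 and -0.35 in miR-NC cells and -0.13 and -0.16 in miR-634 cells, a rise of 0.16 ± 0.05 (adjusted p = 0.0333) that was not called under 10 of 24 alternatives. It was not called without miR-NC RIP number 2 (0.12, adjusted p = 0.136), without either miR-634 RIP array (0.14 and 0.17, adjusted p = 0.104 and 0.0628) or without either miR-NC input array (0.16, adjusted p = 0.0574). RIP/input was above 0 in miR-NC cells (0.37, adjusted p = 0.000805) and in miR-634 cells (0.43, adjusted p = 0.000294), but -2.21 and -1.05 under scaling to the spike-in RNA. The change of 0.06 had a 95% confidence interval of -0.12 to 0.25 (adjusted p = 0.479). However, it was called higher once the median probe was set to 0 (0.33, adjusted p = 0.0102) and under scaling to the spike-in RNA (1.16). Under the latter scaling, the RIP change was 1.02. A second TGFA probe was well above background on the 4 input arrays, where it was 0.48 higher in miR-634 cells, and on no RIP array. It was at least 1.53-fold lower in the RIP than in the input of miR-634 cells, with no bound above 1 in miR-NC cells, so the 2 TGFA probes disagreed in direction.

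BTC, a ligand of both EGFR and the related receptor ERBB4, was dim and had the largest spread between duplicates among the 12 tested probes. In the input, its level was -3.70 and -3.88 in miR-NC cells and -3.69 and -3.71 in miR-634 cells. In the RIP, it was -4.16 and -4.18 in miR-NC cells and -4.90 and -5.56 in miR-634 cells. The miR-634 RIP arrays lay below the other 6 arrays, with an SD of 0.46 between them. BTC fell 2.08-fold in the RIP (-1.06 ± 0.20, adjusted p = 0.00266) and did not pass the test in the input (0.09 ± 0.20, adjusted p = 0.806). RIP/input in miR-634 cells was -1.53 ± 0.20 (adjusted p = 0.000342) and changed by -1.14 ± 0.28 (adjusted p = 0.0103). Under scaling to the spike-in RNA, this change was -0.04 (adjusted p = 0.896), and RIP levels differed between miR-634 and miR-NC cells by -0.19 (adjusted p = 0.408). The methods' t-test, with or without adjustment, called neither the RIP fall nor the change of RIP/input. In miR-NC cells, RIP/input was -0.38 ± 0.20 (adjusted p = 0.116), and it was called when either miR-634 RIP array was left out (adjusted p = 0.0042). EPGN, the remaining EGFR ligand, was well above background on 0 of 8 arrays and has no fold.

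ERRFI1 (also called MIG6), the inhibitor of the receptors, rose in the RIP of miR-634 cells and did not pass the test in their input. Its input level was -0.13 and -0.08 in miR-NC cells and -0.10 and -0.13 in miR-634 cells, a difference of -0.02 with a 95% confidence interval of -0.15 to 0.12 (adjusted p = 0.882). Its RIP level was 0.49 and 0.38 in miR-NC cells and 1.69 and 1.66 in miR-634 cells, a rise of 2.36-fold (adjusted p = 4.17e-06). All RIP levels were above all input levels. RIP/input was 0.54 ± 0.06 in miR-NC cells (adjusted p = 0.000151) and 1.79 ± 0.06 in miR-634 cells (adjusted p = 5.69e-07). Each was the highest value among the tested member probes. Under scaling to the spike-in RNA, the 2 ratios were -2.04 and 0.31, and the latter was not called (adjusted p = 0.146). The change was 1.25 ± 0.08, or 2.38-fold (adjusted p = 2.87e-05), and it was called under all 24 alternatives (1.20 to 2.35).

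**Figure D4:**
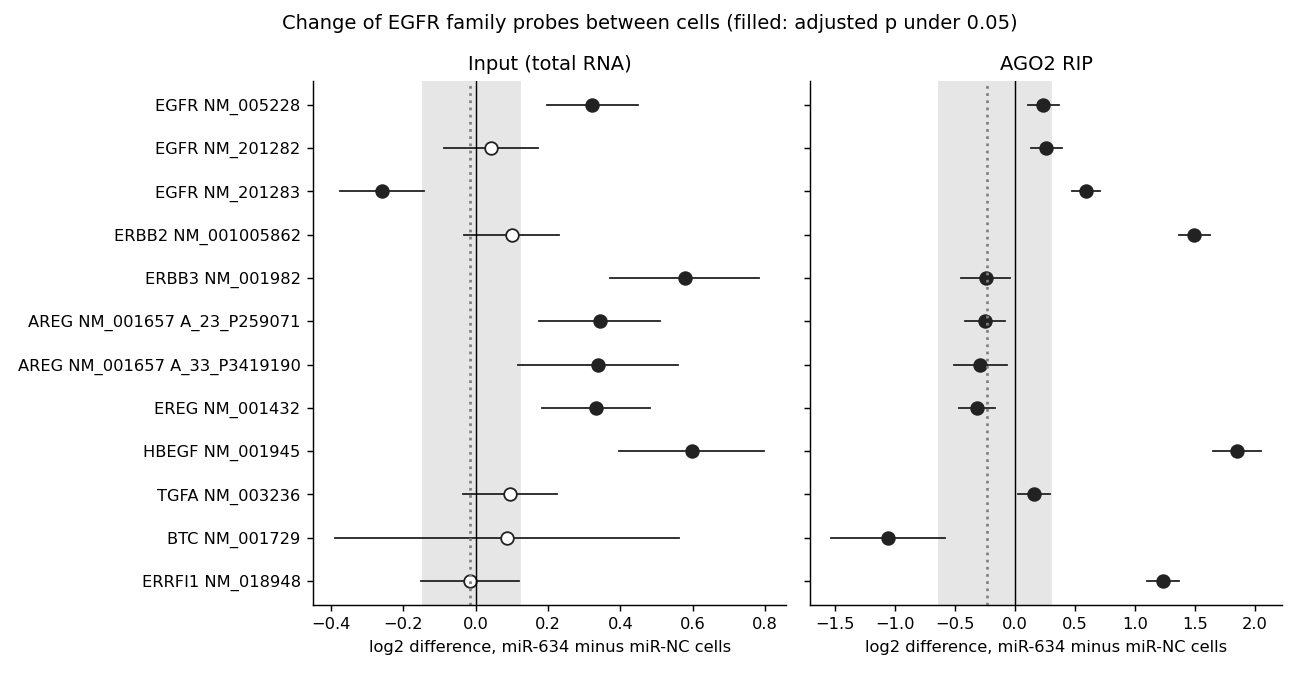
Log2 difference between miR-634 and miR-NC cells (horizontal axis) of each tested probe in the input (left) and in the RIP (right). Points are limma estimates, filled where the adjusted p was under 0.05, lines are 95% confidence intervals, and the dotted line and gray band are the median and the interquartile range of all tested probes; HBEGF was called higher in both panels, whereas ERBB3, AREG and EREG were called higher in the input and lower in the RIP, where they lay close to the median of all tested probes (-0.24) and turned to 0.55 to 0.62 under scaling to the spike-in RNA.

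Over the members, 6 probes (of EGFR, ERBB3, AREG, EREG and HBEGF) rose in the input and 1 (EGFR NM_201283) fell, against a background of 18.2% of all tested probes called (8.42% higher and 9.83% lower). The median input change was 0.21 over the 12 member probes and -0.02 over all tested probes. The number of input calls depended on each input array. Leaving out miR-NC input number 1 left 2 calls, and leaving out miR-NC input number 2 or either miR-634 input array left 1, although 6 or 7 member probes had an unadjusted p under 0.05 in each of these fits. Without a filter on dim probes, and under scaling to the spike-in RNA, limma called 0 member probes in the input, with 7 and 1 at an unadjusted p under 0.05. The methods' t-test gave 7 calls at an unadjusted p under 0.05 and 0 after Benjamini-Hochberg adjustment. In the RIP, 7 probes rose and 5 fell, against a background of 76.0% (27.3% higher and 48.6% lower). That split was 11 higher and 0 lower under scaling to the spike-in RNA, beside 62.3% higher and 3.82% lower among all tested probes.

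The wider pathway was read through 74 further genes in 7 lists, of which 59 were measured, each by its brightest probe. For the change of enrichment, 20 of these were higher, 30 were lower and 9 were not called, with a median of -0.37 beside -0.26 over all tested probes. Scaling to the spike-in RNA gave 31 higher and 0 lower (34 at an unadjusted p under 0.05), so the directions below are relative to the 75th percentile of the array. In the input, 8 were higher, 6 were lower and 45 were not called. Called higher and lower were thus 33.9% and 50.8% of these genes for the change of enrichment and 13.6% and 10.2% in the input, beside 24.9% and 43.5%, and 8.42% and 9.83%, of all tested probes. In a fit of the brightest probe of each of 10959 genes, 28.1% were higher and 43.2% lower for the change, with a median of -0.22. In the input, 11.6% were higher and 12.1% lower in that fit, close to the shares of the pathway genes.

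Among the genes that make, free and relay the signal, NRG1, a ligand of ERBB3 and ERBB4, had a lower RIP/input in miR-634 cells (-1.09 ± 0.07, adjusted p = 2.8e-05), as 1 of the 2 measured of 6 other receptors and ligands. Of 6 measured genes for ligand shedding and trafficking, 4 were higher and 2 lower. They included RHBDF2 (1.31) and its relative RHBDF1 (-0.92), which guide the shedding protease ADAM17 to the cell surface, and FRMD8 (0.79), which stabilizes them. ADAM17 itself fell in the input by 0.21 on the log2 scale (adjusted p = 0.0406). Of 15 measured adaptors and RAS-MAPK genes, 7 were higher and 5 lower, with MAPK3 (ERK1) at 1.01, the RAS activator SOS2 at -0.98 and NRAS at 0.86. NRAS was also lower in the input (-0.44, adjusted p = 0.00259). Of 6 PI3K-AKT genes, 4 were higher and 2 lower. The regulatory subunit PIK3R1 changed by 1.71 ± 0.08 (adjusted p = 8.84e-06) and the AKT-activating kinase PDPK1 by 1.69 ± 0.11 (adjusted p = 3.03e-05). Both fell in the input, by 0.79 (adjusted p = 0.00105) and by 0.57 (adjusted p = 0.00566).

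Among the genes that restrain or read out the receptors, 1 of 10 measured feedback inhibitors was higher and 7 were lower, with a median of -0.53. SPRY1, a Sprouty inhibitor of RAS-MAPK, was at -1.38, SOCS5, a suppressor of cytokine signaling that also acts on EGFR, at -1.27 and LRIG3, of a family of receptor-binding membrane proteins, at -1.11. SPRY4 rose in the input by 0.58 (adjusted p = 0.0316). Of 11 measured genes for receptor ubiquitination and turnover, 1 was higher and 8 were lower. The one that was higher was RNF41 (1.65 ± 0.09, adjusted p = 1.55e-05), a ubiquitin ligase of ERBB3, which fell in the input by 0.48 (adjusted p = 0.00553). SH3KBP1, an endocytic adaptor of the ligase CBL, was at -1.39 and the receptor phosphatase PTPN1 at -0.90, and they rose in the input by 0.31 (adjusted p = 0.0359) and 0.60 (adjusted p = 0.00186). Of 9 measured ERK-responsive transcripts, 3 were higher and 5 lower. FOS was at 1.80 ± 0.10 (adjusted p = 1.69e-05) and KLF6 at 1.30 (adjusted p = 1.32e-05), while IER3 was at -1.31 (adjusted p = 1.1e-05). In the input, FOS fell by 0.39 (adjusted p = 0.0147) and IER3 rose by 0.44 (adjusted p = 0.00285), as did FOSL1 by 0.47 (adjusted p = 0.00903).

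**Figure D5:**
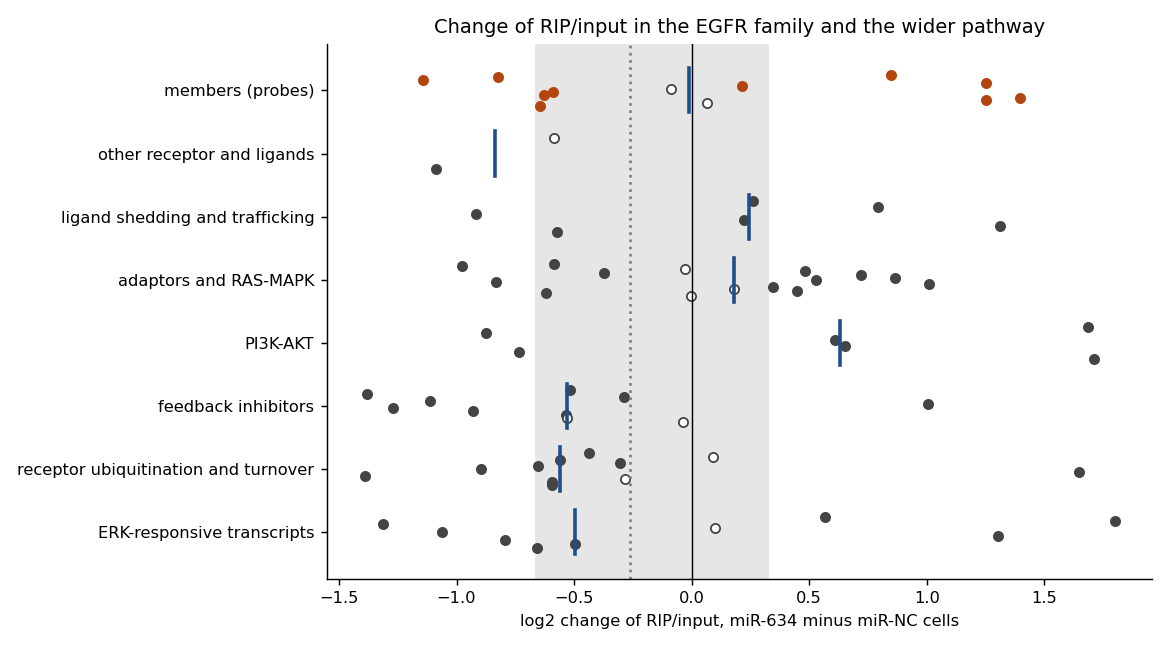
Change of log2 RIP/input (horizontal axis, miR-634 minus miR-NC cells) of the 12 member probes (orange) and of 59 genes in 7 pathway lists (gray). Filled points had an adjusted p under 0.05, blue ticks are medians of the rows, and the dotted line and gray band are the median (-0.26) and the interquartile range of all tested probes; every list but the first held called genes on both sides of 0, and under scaling to the spike-in RNA 31 of the 59 genes were called, all higher.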

How the data were processed

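The authors deposited the intensity of every spot, read by Agilent Feature Extraction (version 9.1 per the labels, 12.0.1.1 per the file headers) with background subtracted and spatial trends removed, and a table of log2 values from GeneSpring, whose scale and centering are not stated. The latter served as an alternative. Control and outlier spots were left out, replicate spots were averaged, and from the log2 intensities of each array the 75th percentile was subtracted, taken over the 16808 probes well above background on every array. No spot was saturated. RefSeq accessions were listed for 33080 probes, of which 31104 could be matched, to 22439 symbols. The array was annotated on hg19, so no gene coordinates are given; sequences came from RefSeq tables of GRCh38.p14.

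The 4 group means were fitted with limma 3.58.1 in R 4.3.3 (lmFit and eBayes, 2 arrays per group), with Benjamini-Hochberg adjustment over all tested probes and a threshold of 0.05. The number of arrays limits the precision. The fit was tested on simulated data for the change of enrichment. The members, gene lists and tests were chosen with earlier results of these data known. Named genes were all member probes, up to 3 called genes per pathway list and contrast with the largest change of enrichment or of input, the 5 genes most like EGFR, and APIP; 1 gene that the rule selects is not reported here. There was 1 slide and 1 scan. The fit did not pair samples by replicate number. Correlations of replicate differences were -0.03 to 0.08, which cannot show whether arrays with the same number came from the same cells. Alternatives covered background correction (normexp, offset 50), normalization, scaling, filters, probes per gene, a replicate block, an intensity trend, leaving out each array and the methods' t-test. The latter is the Student's t-test that the paper names for its statistics in general, whereas its RIP-chip genes were chosen by a fold cutoff. For the change of enrichment, this t-test took RIP/input between arrays with the same number. Plots used Python 3.11.15 and matplotlib 3.10.9.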

Additional observations from a re-analysis of the deposited data

Results flagged for a closer look

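RIP/input differed between miR-NC and miR-634 cells for 10 of the 12 member probes by the test of the difference itself (limma, Benjamini-Hochberg over all tested probes), beside 68.4% of all tested probes. The change of log2 RIP/input was 1.40 for ERBB2, 1.25 for HBEGF, 1.25 for ERRFI1, 0.85 for EGFR NM_201283 and 0.22 for EGFR NM_201282. It was -1.14 for BTC, -0.82 for ERBB3, -0.65 for EREG, and -0.63 and -0.59 for the 2 AREG probes. The values of ERBB3, EREG and AREG turned to 0.28 to 0.51 under scaling to the spike-in RNA, and that of BTC was then -0.04 and not called (adjusted p = 0.896). Neighboring EREG and AREG had like values, whereas BTC, which lies next to AREG, was dim and spread by 0.46 (SD, 2 arrays) on the miR-634 RIP arrays.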

How the results depend on the processing

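The changes of enrichment of ERBB2, HBEGF, ERRFI1 and EGFR NM_201283 kept their sign and stayed past the threshold under all alternatives run. Scaling to the spike-in RNA turned the sign of the change of enrichment of EGFR NM_005228 (1.01), ERBB3 (0.28), AREG (0.51 and 0.47) and EREG (0.45), and of the RIP change of ERBB3 (0.62), AREG (0.62 and 0.57) and EREG (0.55), and the calls of BTC for both were lost (-0.04 and -0.19). It also turned RIP/input in miR-634 cells of EGFR NM_201283 (-1.35), ERBB2 (-0.60), HBEGF (-0.47) and TGFA (-1.05), RIP/input in miR-NC cells of TGFA (-2.21) and ERRFI1 (-2.04), and the input change of EGFR NM_201282 (-0.19), ERBB2 (-0.14), TGFA (-0.14) and BTC (-0.15). Member probes called were then 0 higher and 12 lower for the ratio in miR-NC cells, 0 and 11 for that of miR-634 cells, 0 lower for its change, 0 in the input and 11 higher and 0 lower in the RIP, and pathway genes 31 higher and 0 lower for the change and 0 higher in the input (8 at an unadjusted p under 0.05). The change of enrichment of EGFR NM_005228, near 0 in the main fit, also turned with the authors' values (0.032), the percentile over all probes (0.032), the mean of the probes (0.33, called higher) and the median probe set to 0 (0.18). That of TGFA, not called in the main fit, was called higher under scaling to the spike-in RNA (1.16) and with the median probe set to 0 (0.33). The input change of ERRFI1 turned to 0.039 with the authors' values, 0.040 with the percentile over all probes, 0.00069 with the median probe set to 0 and 0.011 without miR-NC input number 2 (-0.041 to 0.011 over the arrays left out), that of BTC to -0.0041 without that array, and RIP/input of the second AREG probe in miR-NC cells to 0.0039 without miR-NC RIP number 2.

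In the input, member calls were 3 (3 higher, 0 lower) with a filter on any 1 group, 4 (0 lower) with the mean of the probes, 0 with no filter and 0 by the methods' t-test after adjustment (7 unadjusted), and the lower call was lost (0) with the authors' values, the percentile over all probes and the brightest probe per gene. In the RIP, lower calls were 1 with the authors' values, the percentile over all probes or the median probe set to 0, and 2 with no filter. The methods' t-test gave 7 RIP calls (1 lower) unadjusted and 4 (4 higher, 0 lower) after adjustment, and 6 for the change (2 lower). The brightest probe per gene left 3 higher for the change, as it drops 2 of 3 EGFR probes and 1 of 2 AREG probes. Pathway genes higher in the input were 5 with the authors' values or the percentile over all probes, 4 with either wider filter, 0 with no filter (1 lower, 16 unadjusted), and 13 unadjusted or 0 adjusted (0 lower) by the methods' t-test. The causes were not tested. The median probe and any-group settings were added after seeing the data.

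Leaving out 1 array gave 1 to 7 member calls in the input (1 to 6 higher, 0 to 1 lower), 8 to 11 in the RIP (2 to 5 lower), and 2 to 10 pathway genes higher in the input. With the replicate number as a block, members called were 9 for the change of enrichment, losing EGFR NM_201282 (adjusted p = 0.0596), 7 in the input and 11 in the RIP, and 5 pathway genes were higher in the input. Whether the numbers pair the samples is not known.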
